A study of Mus musculus with 12 samples.

Results

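The IL-2 and IL-15 cytokine receptor system is described here by its 6 genes, *Il2*, *Il2ra*, *Il2rb*, *Il2rg*, *Il15* and *Il15ra*, in single cells of MC38 tumors. The genes were found by symbol, and all 6 were among the 27457 symbols measured in 93126 cells. Single-cell RNA sequencing (scRNA-seq) counted transcripts by unique molecular identifiers (UMIs), each of which marks 1 captured RNA molecule. The data came from 48 tumors pooled 4 at a time into 12 libraries, with 27 cell clusters numbered by the authors.

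IL-2 and IL-15 are cytokines of the common γ chain family. Both signal through IL-2Rβ (*Il2rb*) and the common γ chain (*Il2rg*), which recruit the kinases JAK1 and JAK3 and activate STAT5, and each has an α chain of its own, IL-2Rα or CD25 (*Il2ra*) and IL-15Rα (*Il15ra*). IL-2 is secreted mainly by activated T cells and is bound with high affinity by cells that carry all its receptor chains, classically regulatory T cells and recently activated T cells. IL-15 is made mainly by myeloid and stromal cells and is presented in trans on IL-15Rα to neighboring NK cells and CD8 T cells, which it sustains. The γ chain also serves the receptors of IL-4, IL-7, IL-9 and IL-21.

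MC38 is a mouse colon carcinoma line. For these tumors 500000 cells were placed under the skin of female mice of 8 to 12 weeks of age. Every host carried a C57BL/6J (B6) genome, since hosts were B6 mice or F1 offspring of C57BL/6J and a Collaborative Cross (CC) strain, an inbred strain bred from several founders. At 75 to 110 mm3 each tumor-bearing mouse received 200 µg of isotype antibody (2A3) or of an anti-PD-1 antibody (aPD1, 29F.1A12) once, and the tumor was taken 48 h later and sorted to 90% CD45+ and 10% CD45- cells. Responder strains, as the study classed them, were the F1 of CC001/UncJ, CC002/UncJ and CC075/UncJ (10 isotype and 10 aPD1 tumors), and non-responder strains were the F1 of CC036/UncJ, CC079/TauUncJ and CC080/TauUncJ (9 isotype and 9 aPD1 tumors). The 5 isotype and 5 aPD1 tumors of B6 and C57BL/6J x CC007/UncJ hosts belong to no class. Each class rests on 3 genotypes, so tumors of a strain share a genotype. Isotype and aPD1 tumors never carried the same hashtag antibody, so the hashtag and the treatment cannot be told apart.

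Tumors held 53 to 3082 cells and 88816 to 17713491 UMIs, with a median of 3333.5 UMIs per cell over all cells. Barcodes that also occurred in another library belonged to 10176 cells. From marker lists that contain none of the 6 genes, 9 clusters were T/NK-like (12021 cells), 10 were macrophage-like (68059 cells), and clusters 6, 14, 11 and 18 were cDC1-like, cDC2-like, migratory DC-like and pDC-like. Within the T/NK clusters, all 3 CD8 T cell markers reached 100 counts per 1000000 UMIs (CPM, a gene's UMIs relative to all UMIs of a group of cells) in clusters 1, 3, 7, 8, 12 and 13 (highest in cluster 3), all 4 regulatory T cell markers in cluster 8 and all 6 NK markers in cluster 24. Cluster 12 carried 7 of 8 macrophage markers at that level beside all 8 T/NK markers, and cluster 14 carried 7 of 8 macrophage markers beside 4 of 6 cDC2 markers.

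*Il2*, which encodes the cytokine IL-2 (GRCm38, chr3:37120523-37125959, minus strand), was rare and concentrated. It had 1986 UMIs in 294 cells, of which 172 cells held exactly 1 UMI, 18 cells held 50% of all its UMIs and 1 cell held 130. T/NK clusters held 94.3% of the *Il2* UMIs. Cluster 13 alone, whose leading genes are *Il2*, *Ifng* and *Xcl1*, held 71.1% of them at 722 CPM, with an *Il2* UMI in 102 of its 631 cells. Over the 23 tumors with at least 10 cells in cluster 13 the level was 812 ± 954 CPM (mean ± SD). Cluster 10, with the CD4 T cell markers and *Il13* and *Tnfsf11* among its leading genes, followed at 109 CPM, and cluster 12 at 71.3 CPM. *Il2* in cluster 13 stood above cluster 10 beyond the spread of their differences within tumors (higher in 12 of 15 tumors). No later pair of neighbors in the *Il2* order stood apart in that way. The NK-like cluster 24 was at 0.735 CPM and the regulatory T-like cluster 8 at 1.69 CPM.

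*Il2ra*, the α chain that gives the IL-2 receptor its high affinity (chr2:11642807-11693193, plus strand), was highest in cluster 8, at 613 CPM, with 34.3% of its 10546 UMIs and a UMI in 58.2% of cells. Cluster 13 followed at 507 CPM, then cluster 23 at 251 CPM, cluster 10 at 215 CPM and cluster 1 at 207 CPM. Outside T/NK cells the highest level of *Il2ra* was in the migratory DC-like cluster 11, at 127 CPM (134 ± 70.1 over 44 tumors), above cluster 3 (101 CPM) and the NK-like cluster 24 (51.2 CPM) but below clusters 13 and 1, which carry the CD8 T cell markers as cluster 3 does. cDC2-like cells had 23.02 CPM and the macrophage clusters together 4.61 CPM of *Il2ra*. The drop from cluster 13 to cluster 10 exceeded the spread within tumors (14 of 15 tumors). Clusters 8 and 13 did not stand apart.

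*Il2rb*, the β chain that both cytokines use (chr15:78479256-78495271, minus strand), was nearly restricted to T/NK clusters, which held 97.6% of its 17053 UMIs. The NK-like cluster 24 led at 820.5 CPM (788 ± 182 over 38 tumors), with a UMI in 73.6% of cells, followed by cluster 3 at 574 CPM and cluster 1 at 534 CPM. The step for *Il2rb* from cluster 24 to cluster 3 exceeded the spread within tumors and was seen in 30 of 33 tumors that held both. Cluster 8 had 430.0 CPM and cluster 13 340.5 CPM. Macrophage clusters had 0.934 CPM of *Il2rb*, and 1.65% of its UMIs.

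*Il2rg*, the common γ chain (chrX:101264378-101268255, minus strand), was found in nearly all immune clusters. Cluster 10 was highest at 572 CPM (616 ± 194 over 21 tumors), above cluster 8 at 453 CPM in 21 of 21 tumors, and the T/NK clusters ranged down to 283 CPM in cluster 12. *Il2rg* then dropped, beyond the spread within tumors, to 196 CPM in the migratory DC-like cluster 11. Macrophage clusters had 141 CPM and, since they are most of the cells, 67.4% of the 62996 *Il2rg* UMIs, with a range from 66.2 CPM in cluster 19 to 191 CPM in cluster 21. cDC1-like cells had the lowest level of the dendritic clusters, at 33.6 CPM, against 159 CPM in cDC2-like and 158 CPM in pDC-like cells.

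*Il15*, the cytokine IL-15 (chr8:82331632-82403222, minus strand), had 80.9% of its 12306 UMIs in macrophage clusters, which are most of the cells, at 33.1 CPM. Its highest level per UMI was in cluster 16, the granulocytic-like cells, at 279 CPM (280.0 ± 149 over 18 tumors), a cluster of 529 shallow cells with a median of 815 UMIs. Cluster 21, a macrophage cluster led by the interferon-stimulated genes *Ifit3b*, *Ifit3* and *Ifit1bl1*, had 123 CPM, macrophage cluster 19 had 107 CPM and the migratory DC-like cluster 11 had 94.5 CPM. These 4 clusters did not stand apart from their neighbors in the order, and cluster 11 stood above the next, macrophage cluster 9 at 47.0 CPM, by more than the spread of the *Il15* differences within tumors (higher in 28 of 32 tumors). T/NK clusters together had 3.96 CPM.

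*Il15ra*, the α chain that presents IL-15 (chr2:11705290-11734317, plus strand, starting 12.1 kb beyond the end of *Il2ra*), peaked in the migratory DC-like cluster 11, at 137 CPM with a UMI in 35.6% of cells. That was above macrophage cluster 21, the next at 35.7 CPM, in 44 of 44 tumors. Cluster 13 had 30.7 CPM, cluster 20 29.2 CPM and macrophage cluster 19 26.5 CPM, and none of these neighbors stood apart. Macrophage clusters, being most of the cells, held 57.5% of the 6247 *Il15ra* UMIs at 11.9 CPM. The migratory DC-like cluster thus had 3 of the 6 transcripts at over 90 CPM that the other dendritic clusters had at 23.02 CPM or less, *Il2ra*, *Il15* and *Il15ra*, while its *Il2rb* was 3.77 CPM.

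**Figure D1:**
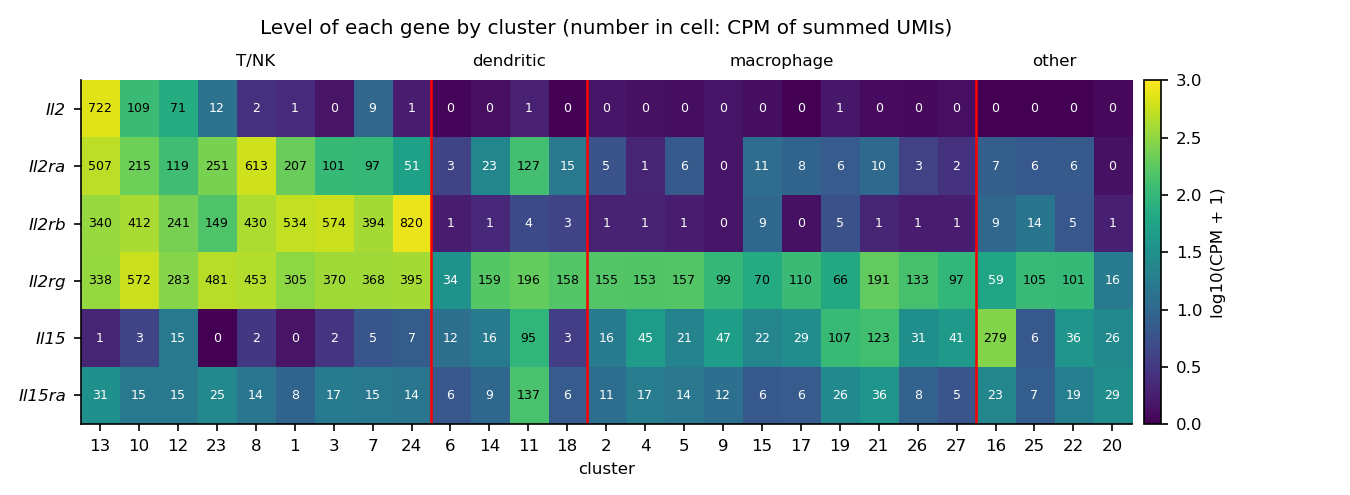
Level of each of the 6 genes (rows) in the 27 clusters (columns), as CPM of UMIs summed over all tumors; the number in each cell is the CPM and the color is log10(CPM + 1). *Il2* is highest in cluster 13 (722 CPM), *Il2ra* in cluster 8 (613 CPM), *Il2rb* in cluster 24 (820.5 CPM), *Il15* in cluster 16 (279 CPM) and *Il15ra* in cluster 11 (137 CPM). *Il2ra* in clusters 8 and 13 and *Il15* in clusters 16 and 21 did not stand apart.

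**Figure D2:**
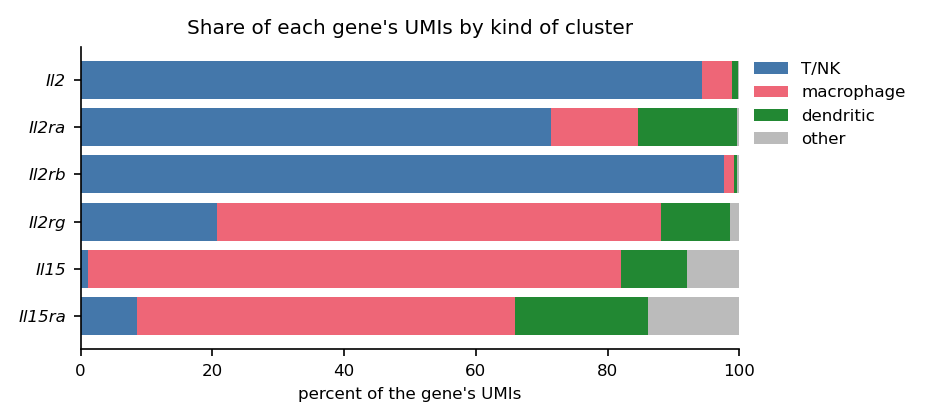
Percent of each gene's UMIs (x axis) held by T/NK, macrophage, dendritic and other clusters, 1 bar per gene. T/NK clusters hold 94.3% of *Il2* and 97.6% of *Il2rb* UMIs, and macrophage clusters hold 67.4% of *Il2rg*, 80.9% of *Il15* and 57.5% of *Il15ra* UMIs. Macrophage clusters hold 68059 of the 93126 cells, so shares depend on cell numbers as well as on levels.

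The genes whose levels over the 27 clusters were most like each member, by Pearson's r of log2(CPM + 1) among 7374 genes, were as follows. For *Il2* they were the cytokine and TNF-family genes *Il21* (r = 0.88), *Il13*, *Cd40lg*, *Tnfsf11* and *Csf2*. For *Il2ra* they were the co-stimulatory receptor genes *Tnfrsf18* (r = 0.94), *Icos*, *Tnfrsf9* and *Tnfrsf4* with *Camk4*. *Il2rb* went with *Gm19585* (r = 0.99), *Sh2d2a*, *Lck*, *Trbc2* and *Nkg7*, and *Il2rg* with *Jak3* (r = 0.87), which encodes the kinase bound by the γ chain, *Shisa5*, *Rasgrp1*, *Spn* and *Ptp4a2*. *Il15* went with *Tdrd7* (r = 0.90), *Pygl*, *Tnfaip2*, *Pik3r6* and *Dram1*, and *Il15ra* with the NF-κB genes *Relb* (r = 0.78) and *Nfkb2* and with *Arf4*, *Pcgf5* and *Fas*. Clusters were made from these same cells and share libraries, so these values are a description.

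Cells that carried all 3 IL-2 receptor chains at once were counted after thinning each cell of at least 1000 UMIs at random to 1000 UMIs, because the chance of seeing 3 transcripts in a cell grows with depth. Cluster 8 had the highest share, 5.72% (95% exact interval 4.62 to 6.99; 22.53% without thinning). Cluster 13 had 3.89% (22.03% without thinning), cluster 10 had 2.24% (13.9%), cluster 1 had 1.14% (18.4%), cluster 3 had 1.04% (10.9%) and the NK-like cluster 24 had 0.396% (5.02%). Of all 9714 thinned T/NK cells 176 (1.81%) carried the 3 chains, with a median of 1918 UMIs before thinning. Among 63780 thinned macrophages, with a median of 3481 UMIs, 0 did, which allows a share of up to 0.0047% at that depth. Without thinning 4 of 68059 macrophages (0.00588%) and 1333 of 12021 T/NK cells (11.1%) did. Thinning left out 15.3% to 24.2% of T/NK cells and 4.39% to 10.6% of macrophages per group. Intervals and limits cover counting error only.

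Per tumor, the share of T/NK cells with all 3 chains was compared between classes. In isotype tumors the lowest, median and highest shares were 0%, 1.32% and 2.94% in responder strains and 0.615%, 1.19% and 4.55% in non-responder strains, and these ranges overlapped (difference of means -0.513 percentage points, two-sided exact permutation test p = 0.374, n = 10 and 9). In aPD1 tumors they were 0%, 1.48% and 3.56% in responder strains and 1.08%, 2.70% and 11.5% in non-responder strains. The difference was -2.08 percentage points (exact permutation p = 0.0394), which did not pass after adjustment over the 2 comparisons (adjusted exact p = 0.0788). The highest share belonged to the CC079 aPD1 tumor of pool 1, with 3 of 26 thinned cells, and without that tumor the difference was -1.10 percentage points (adjusted exact p = 0.186). With cells thinned to 2000 UMIs it was -6.27 percentage points (adjusted exact p = 0.0103), and without CC036 -2.88 percentage points (adjusted exact p = 0.0290). With cells not thinned it was -4.25 percentage points (adjusted exact p = 0.142). The test exchanged tumors, though each class rests on 3 genotypes. Thinning to 2000 UMIs leaves out all cells below that depth, and the median was 1918 UMIs in T/NK cells and 1375.5 in cluster 8.

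The next question was whether any member differed between responder and non-responder strains, or after aPD1, within T/NK cells. Counts were summed per tumor and tested with edgeR's quasi-likelihood test over all genes, with Benjamini-Hochberg adjustment and a threshold of 0.05, so that p-values measure the spread between tumors. *Il15* was too low in T/NK clusters to be tested (18 to 33 UMIs in each classed group), and the other 5 genes were tested among 7219.

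None of the 5 passed in the class comparison (2.08% of all genes did). Among them *Il2ra* alone had an unadjusted p under 0.05, as had 1035 of the 7219 genes. DESeq2 also called 0 of the 5. *Il2rb* had overlapping groups, with a lowest, median and highest of 371, 470.4 and 663 CPM in non-responder isotype, 367, 417 and 549.8 CPM in responder isotype, 322, 453 and 620.2 CPM in non-responder aPD1 and 353, 431 and 585 CPM in responder aPD1 tumors. All 4 groups overlapped, with a log2 difference between responder and non-responder strains of -0.01 ± 0.09 (SE). *Il2rg* overlapped as widely (-0.09 ± 0.15), and its medians ran from 389 CPM in responder aPD1 to 445 CPM in non-responder aPD1 tumors. The sign of both differences changed under some alternatives. *Il15ra* ranged from 0 to 35.0 CPM over the classed tumors (0.19 ± 0.21). These sums mix clusters whose shares differ by class. In isotype tumors cluster 24 had a median of 5.67% of T/NK cells in responder and 15.4% in non-responder strains. Cluster 3 had 35.2% and 10.6%. The part of this makeup in the values was not tested. 

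*Il2* varied more between tumors than between groups. Its lowest, median and highest levels in T/NK cells were 0, 13.9 and 102 CPM in non-responder isotype, 0, 51.1 and 237 CPM in responder isotype, 0, 8.97 and 755 CPM in non-responder aPD1 and 0, 55.4 and 248 CPM in responder aPD1 tumors. Every group thus held tumors with no *Il2* UMI, 7 of 38 in all, and the ranges overlapped. The medians were higher in responder strains, but the class difference of 1.06 ± 0.66 on the log2 scale had an adjusted p of 0.502 by edgeR. Cluster 13, which holds most *Il2* UMIs, made up a median of 7.31% of T/NK cells in responder isotype and 1.89% in non-responder isotype tumors. In aPD1 tumors these medians were 5.33% and 2.88%. The part of this makeup in the *Il2* values was not tested. The 755 CPM in the CC079 aPD1 tumor of pool 1 came from 61 UMIs, of which 60 were in 1 cell.

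*Il2ra* in T/NK cells of aPD1 tumors had the lowest p of these genes, under 0.05 before adjustment. It ran from 115 CPM through a median of 390.2 CPM to 755 CPM in non-responder strains and from 113 CPM through 206 CPM to 330.0 CPM in responder strains, and 6 of 9 non-responder tumors lay above every responder tumor. In isotype tumors the medians were 211 CPM and 225 CPM and the ranges overlapped. The difference in aPD1 tumors was -0.85 ± 0.28 (adjusted p = 0.209 by edgeR), and 0.319% of all genes passed in this comparison. Leaving out CC080 brought the adjusted p to 0.0488 (-1.13), and leaving out CC079, whose aPD1 tumors had a mean of 641 CPM, brought the difference to -0.41 (adjusted p = 0.615). The regulatory T-like cluster 8, where *Il2ra* is highest, made up a median of 33.6% of T/NK cells in non-responder aPD1 tumors and 17.7% in responder aPD1 tumors. Macrophage markers in T/NK cells, 8 genes summed, also had their highest median in non-responder aPD1 tumors (1527 CPM, against 608 CPM in responder aPD1 tumors). Their part in the *Il2ra* values was not tested. Within cluster 8 the class difference of *Il2ra* over both treatments was -0.29 ± 0.23 (adjusted p = 0.662 by edgeR). In aPD1 tumors alone it was larger in size and is given below with the single clusters.

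No member passed in T/NK cells in the other comparisons. In isotype tumors 0.277% of all genes passed and 0 of 5 members had an unadjusted p under 0.05. For aPD1 against isotype, 0.0% of genes passed in responder strains and 0.0% in non-responder strains, and 0.0% passed for the interaction of treatment and class. With the pool as a block 3 genes, and by DESeq2 1 gene, passed in non-responder strains, none of them a member. *Il2ra* was higher with aPD1 in 7 of 9 pool and strain pairs of non-responder strains (0.64 ± 0.29) and in 4 of 10 of responder strains (-0.16 ± 0.27), with an interaction of -0.80 ± 0.39 (adjusted p = 1 by edgeR), and the first and last of these had an unadjusted p under 0.05. DESeq2 called 0 members in each of these.

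Single T/NK clusters, compared over both treatments, gave no called member by edgeR or DESeq2. In cluster 3 (0.769% of genes passed) *Il2rb* differed by -0.01 ± 0.12 and *Il2rg* by 0.22 ± 0.15, in cluster 7 (0.225%) *Il2ra* differed by -0.46 ± 0.40, in cluster 8 (0.0996%) *Il2rb* differed by -0.11 ± 0.13, and in the NK-like cluster 24 (0.066%) *Il2rb* differed by 0.02 ± 0.13 on the log2 scale. *Il2rb* in cluster 24 had medians of 743 CPM in non-responder isotype, 672 CPM in responder isotype, 704 CPM in non-responder aPD1 and 821 CPM in responder aPD1 tumors, and these groups overlapped. None of the members tested in these 4 clusters had an unadjusted p under 0.05 in that comparison.

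In aPD1 tumors alone, a comparison added in single clusters after the pooled values were seen, edgeR and DESeq2 again called 0 members in clusters 3, 7, 8 and 24, where 0.124%, 0.0562%, 0.0664% and 0.066% of all genes passed by edgeR in turn. No member had an unadjusted p under 0.05 by edgeR, and by DESeq2 *Il2ra* in clusters 7 and 8 did. *Il2ra* differed by -0.63 ± 0.31 on the log2 scale in cluster 8 (adjusted p = 0.375 by edgeR), where 3 of 9 non-responder tumors lay above every responder tumor and 3 of 9 responder tumors below every non-responder tumor. It differed by -0.91 ± 0.55 in cluster 7 and by -0.14 ± 0.51 in cluster 3. In cluster 24, where *Il2ra* had too few UMIs to pass the low-count filter, it ran from 0 through 5.71 to 84.9 CPM in 10 responder aPD1 tumors and from 20.5 through 33.4 to 106 CPM in 5 non-responder aPD1 tumors, and 8 of the 10 lay below all 5. With no filter that difference was -0.63 ± 0.51 (adjusted p = 0.766 by edgeR). In isotype tumors 2 of 9 non-responder tumors lay below all 6 responder tumors for *Il2ra* in cluster 24, and 1 lay above.

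Clusters 1, 10 and 13 had fewer than 3 tumors of at least 10 cells in a group and were not tested, so the *Il2* of cluster 13 was not compared between classes. For description, *Il2* in cluster 13 ran from 0 through 806 to 3283 CPM in 8 responder aPD1 tumors and from 63.5 through 444 to 1280 CPM in 5 responder isotype tumors, and it was 85.4 and 2350.2 CPM in 2 non-responder isotype tumors and 239 CPM in 1 non-responder aPD1 tumor.

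**Figure D3:**
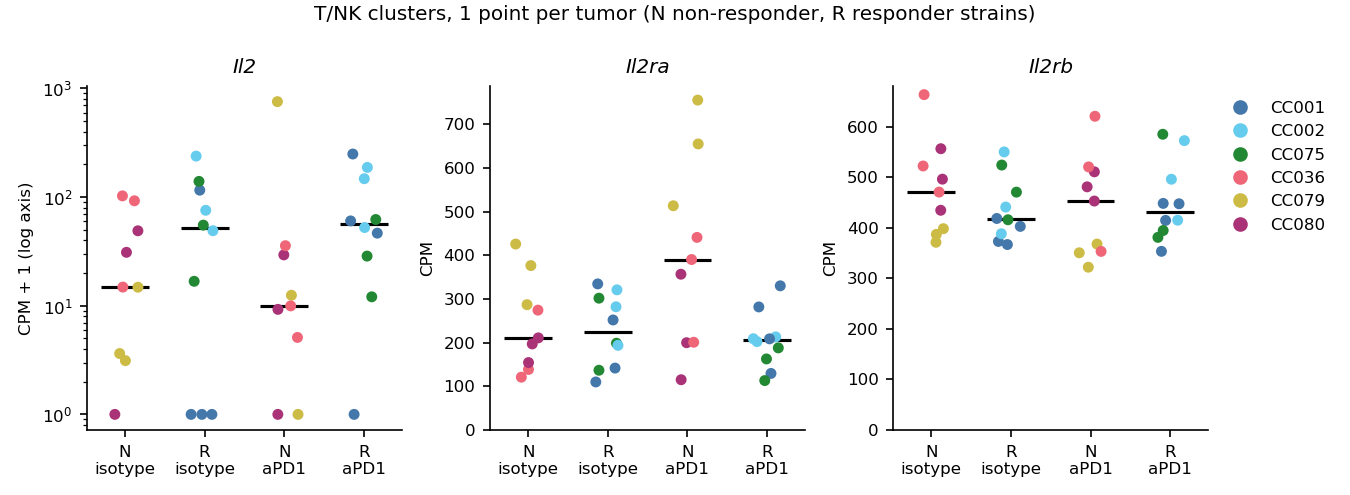
*Il2* (log axis, CPM + 1), *Il2ra* and *Il2rb* (CPM, linear axes from 0) in T/NK clusters, 1 point per tumor colored by strain, with the line at the median of each group. *Il2* spans 0 to 755 CPM with overlapping groups, 6 of 9 non-responder aPD1 tumors lie above every responder aPD1 tumor for *Il2ra*, and the *Il2rb* groups overlap.

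In macrophages of aPD1 tumors, *Il15*, *Il2rg* and *Il15ra* were each higher in responder than in non-responder strains. *Il2* and *Il2rb* were too low in macrophages to be tested, with medians of at most 0.199 and 1.14 CPM in the classed groups, and the other 4 members were tested among 11873 genes.

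*Il15* in macrophages of aPD1 tumors ran from 26.2 CPM through a median of 37.9 CPM to 70.7 CPM in responder strains and from 19.5 CPM through 29.3 CPM to 34.8 CPM in non-responder strains. The ranges overlapped, but 8 of 10 responder tumors lay above all 9 non-responder tumors, and 2 of the 9 lay below every responder tumor. The log2 difference was 0.64 ± 0.13 (adjusted p = 0.00216 by edgeR). By strain, the *Il15* means were 54.9 CPM in CC075, 39.5 CPM in CC001 and 31.5 CPM in CC002, against 30.1 CPM in CC080, 28.7 CPM in CC079 and 25.5 CPM in CC036. CC002 thus stood close to the non-responder strains.

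*Il2rg* ran from 131 CPM through 158 CPM to 269.6 CPM in macrophages of responder aPD1 tumors and from 95.1 CPM through 115 CPM to 174 CPM in non-responder aPD1 tumors. Of the 9 non-responder tumors 8 lay below every responder tumor, and 3 of 10 responder tumors lay above all 9. The difference was 0.63 ± 0.14 (adjusted p = 0.00657 by edgeR). Strain means of *Il2rg* were 177 CPM in CC001, 167 CPM in CC075 and 163 CPM in CC002, against 139 CPM in CC079, 111 CPM in CC080 and 97.6 CPM in CC036, so all 3 responder strains exceeded all 3 non-responder strains.

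*Il15ra* ran from 8.66 CPM through 14.1 CPM to 23.8 CPM in macrophages of responder aPD1 tumors and from 6.49 CPM through 9.51 CPM to 11.4 CPM in non-responder aPD1 tumors. Of the 10 responder tumors 7 lay above all non-responder tumors, and 3 of 9 non-responder tumors lay below every responder tumor. The difference was 0.80 ± 0.23 (adjusted p = 0.0311 by edgeR). It no longer passed without low-count filtering (adjusted p = 0.0648), without the 2 tumors of 1 animal identifier (0.0641), or without CC001, CC075, CC079 or CC080 (0.0621 to 0.150). *Il2ra*, at medians of 4.92 and 1.67 CPM, did not pass (0.77 ± 0.45, adjusted p = 0.333).

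So 3 of 4 tested members were called higher in responder macrophages after aPD1, where 4.33% of all genes were. T/NK markers in these macrophages, 11 genes summed, ran from 6.72 CPM through 11.4 CPM to 68.4 CPM in responder and from 3.29 CPM through 9.34 CPM to 10.9 CPM in non-responder aPD1 tumors. Without the 3.04% of macrophages that held a UMI of those genes the differences were 0.63 for *Il15*, 0.62 for *Il2rg* and 0.79 for *Il15ra*, and all 3 still passed. Pools 1 to 6 alone gave 0.32, 0.59 and 0.64 for *Il15*, *Il2rg* and *Il15ra* (adjusted p = 0.248, 0.153 and 0.357 by edgeR), and pools 7 to 12 alone gave 0.95, 0.69 and 0.89 (0.0333, 0.114 and 0.113). Pools 1 to 6 held no CC075 or CC036 tumor and pools 7 to 12 no CC079 tumor. Pools and strains therefore cannot be told apart in this split. With counts summed per strain and treatment, so that the strain is the replicate, the *Il15*, *Il2rg* and *Il15ra* differences were 0.64, 0.59 and 0.76 and none passed (adjusted p = 0.272, 0.196 and 0.314 by edgeR).

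In isotype tumors no member passed (0.278% of all genes passed), none had an unadjusted p under 0.05, and DESeq2 called 0. *Il15* there ran from 19.99 CPM through 32.8 CPM to 47.4 CPM in responder and from 30.6 CPM through 34.0 CPM to 37.3 CPM in non-responder strains (-0.03 ± 0.13). *Il2rg* medians were 149 and 129 CPM (0.18 ± 0.15) and *Il15ra* medians 10.4 and 10.9 CPM (0.14 ± 0.24), with overlapping ranges. Over both treatments, *Il2rg* (0.40 ± 0.10, adjusted p = 0.0113 by edgeR) and *Il15* (0.31 ± 0.09, adjusted p = 0.0389) passed, 2 of 4, where 4.1% of all genes were higher. *Il15ra* (0.47 ± 0.17, adjusted p = 0.0903) did not. Neither called member passed with counts summed per strain or in pools 1 to 6 alone. The fit over both treatments counted isotype and aPD1 tumors of a pool and strain as separate, though their deviations correlated (median r of 0.471). The *Il15* call was lost with the pool as a block (0.25, adjusted p = 0.102), and when any strain but CC002 was left out (highest adjusted p = 0.252). Leaving out CC075 or CC036 left no member called, with *Il15* at 0.16 and 0.25 and *Il2rg* at 0.36 and 0.34. In pools 1 to 6 alone the *Il15* difference was 0.04 and in pools 7 to 12 alone 0.58, and these sets of pools also differ in strains.

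The effect of aPD1 itself passed for 0.0% of genes in macrophages of responder strains, 0.0% in non-responder strains and 0.0% for the interaction by the fit without the pool. With the pool as a block, and also by DESeq2, 2 genes passed in responder strains and 1 for the interaction, and none was a member. In responder strains *Il15* (0.38 ± 0.13, adjusted p = 0.587 by edgeR) and *Il2rg* (0.37 ± 0.14, adjusted p = 0.662) had unadjusted p-values under 0.05, and *Il15ra* differed by 0.41 ± 0.23. aPD1 tumors were above the isotype tumor of their pool and strain in 7 of 10 pairs for *Il15* and in 8 of 10 for each of *Il2rg* and *Il15ra*. In non-responder strains *Il15* differed by -0.29 ± 0.14 (unadjusted p under 0.05, adjusted p = 1 by edgeR) and was higher with aPD1 in 2 of 9 pairs, and *Il2rg* and *Il15ra* were each higher in 4 of 9. The interaction was 0.67 ± 0.19 for *Il15* (adjusted p = 0.870 by edgeR), 0.45 ± 0.20 for *Il2rg* (0.870) and 0.66 ± 0.33 for *Il15ra* (0.870), with unadjusted p-values under 0.05 for *Il15* and *Il2rg*. So the difference called in aPD1 tumors and not in isotype tumors was not shown to differ between them after adjustment. DESeq2 called 0 members in these 3 comparisons.

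**Figure D4:**
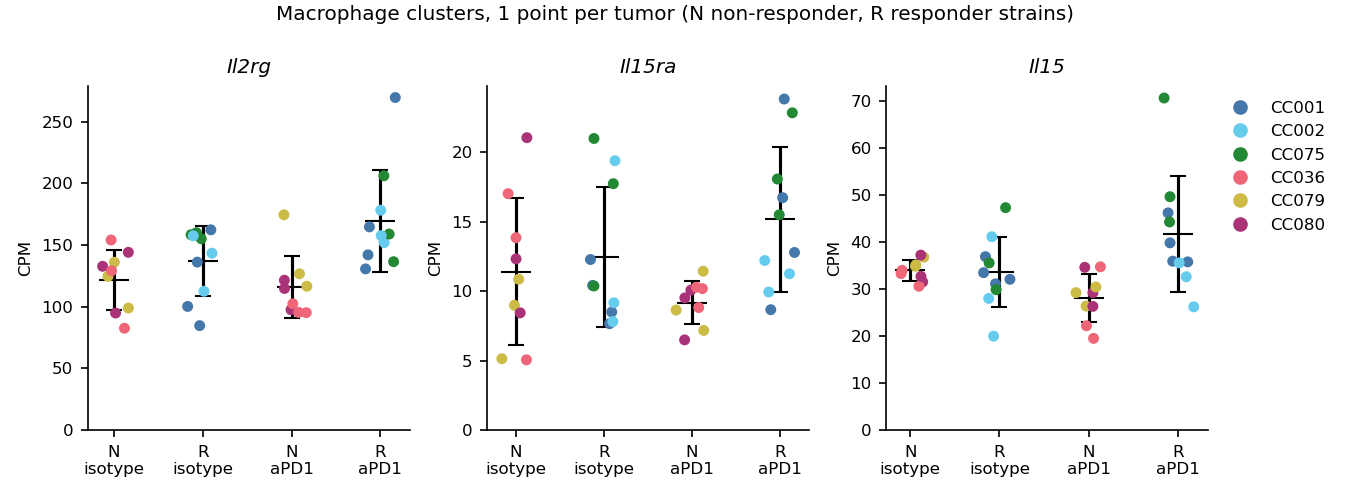
*Il2rg*, *Il15ra* and *Il15* in macrophage clusters (CPM, axes from 0), 1 point per tumor colored by strain, with mean and SD in black; N is non-responder and R responder strains. In aPD1 tumors 8 of 10 responder tumors lie above every non-responder tumor for *Il15* and 7 of 10 for *Il15ra*, and 8 of 9 non-responder tumors lie below every responder tumor for *Il2rg*. Only 2 of 9 and 3 of 9 non-responder tumors lie below every responder tumor for *Il15* and *Il15ra*. For *Il2rg* 3 of 10 responder tumors lie above every non-responder tumor.

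Single macrophage clusters, taken one at a time after the pooled values were seen, differed in which members passed in aPD1 tumors. In cluster 2, led by *Cxcl2*, *Il1b* and *Osm*, *Il15* (0.99 ± 0.16), *Il15ra* (0.86 ± 0.23) and *Il2rg* (0.50 ± 0.14) were all higher in responder strains, where 4.3% of genes were. In cluster 5, whose leading genes include *Ccr2* beside immunoglobulin and hemoglobin genes, the differences were 1.09 ± 0.18 for *Il15*, 1.298 ± 0.237 for *Il15ra* and 0.65 ± 0.14 for *Il2rg*, where 3.07% of genes were higher. In cluster 26, led by *Cxcl13* and *Fcrls*, they were 0.53 ± 0.15 for *Il15*, 0.91 ± 0.26 for *Il15ra* and 0.92 ± 0.16 for *Il2rg*, where 4.86% were higher. In the interferon-stimulated cluster 21 *Il15* passed (0.75 ± 0.15) and *Il15ra* (0.42 ± 0.25) and *Il2rg* (0.23 ± 0.16) did not, where 0.881% were higher. No member passed in clusters 4, 9, 17, 19 and 27, and cluster 15 was too small to test. The share of all genes that passed in these clusters is not given here. A lack of calls there is therefore not read as a lack of difference. Isotype tumors alone were not tested in single macrophage clusters, nor was whether these class differences vary between clusters.

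Dendritic clusters, compared over both treatments, gave no called member by edgeR or DESeq2. In cDC1-like cells (0.524% of genes passed) only *Il2rg* could be tested (0.28 ± 0.28), and in cDC2-like cells (0.645%) *Il15* differed by -0.05 ± 0.23, *Il2ra* by -0.49 ± 0.29 and *Il2rg* by 0.13 ± 0.11. In the migratory DC-like cluster 11 (0.397%), where *Il15ra* is highest, *Il15ra* had medians of 166 CPM in responder isotype, 122 CPM in non-responder isotype, 159.9 CPM in responder aPD1 and 114 CPM in non-responder aPD1 tumors. Its difference there of 0.40 ± 0.16 had the only unadjusted p under 0.05 among the dendritic members in that comparison (adjusted p = 0.373 by edgeR).

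In aPD1 tumors alone, also added after the pooled values were seen, edgeR and DESeq2 called 0 members in cDC1-like, cDC2-like and migratory DC-like clusters, where 0.214%, 0.201% and 0.108% of genes passed by edgeR in turn. DESeq2 gave no adjusted p for *Il2rg*, the 1 member tested in cDC1-like cells. *Il15ra* in cluster 11 was the only member with an unadjusted p under 0.05 by edgeR (0.64 ± 0.21, adjusted p = 0.315). For it 7 of 10 responder tumors exceeded all 9 non-responder tumors and 6 of 9 non-responder tumors below every responder tumor. *Il15ra* in cDC2-like cells did not pass the low-count filter. It ran from 6.85 through 11.1 to 18.1 CPM in responder aPD1 tumors and from 5.10 through 7.17 to 10.1 CPM in non-responder aPD1 tumors. Of the 10 responder tumors 8 exceeded all 9 non-responder tumors, and 4 of the 9 lay below every responder tumor. *Il15* in cDC1-like cells, also below the filter, ran from 7.56 through 15.6 to 34.8 CPM in 10 responder and from 0 through 3.63 to 33.1 CPM in 8 non-responder aPD1 tumors. Of the 8, 7 lay below every responder tumor, but only 1 of the 10 responder tumors lay above all 8. With no filter these differences were 0.66 ± 0.31 for *Il15ra* (adjusted p = 0.708 by edgeR) and 1.35 ± 0.54 for *Il15* (adjusted p = 0.562 by edgeR). In isotype tumors 3 of 6 responder tumors lay below all 8 non-responder tumors for *Il15* in cDC1-like cells, and 1 lay above. For *Il15ra* in cDC2-like cells of isotype tumors 2 of 10 responder tumors lay below all 9 non-responder tumors and 1 above.

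With all cells of a tumor summed, 0 of 6 members passed by edgeR (3.2% of genes did). An unadjusted p under 0.05 was found for 4 of the 6, and for 1888 of all 13503 genes tested. DESeq2 called *Il15ra*, *Il2* and *Il2rg*, and 4.55% of all genes. With the pool as a block *Il15ra* passed (0.44, adjusted p = 0.0385 by edgeR), where 4.41% of all genes did. By edgeR the differences were 0.40 ± 0.12 for *Il15ra* (adjusted p = 0.0594), 0.34 ± 0.10 for *Il2rg* (0.0563), 1.94 ± 0.68 for *Il2* (0.133) and 0.28 ± 0.10 for *Il15* (0.148). In such sums a change in the number of cells of a type cannot be told apart from a change in RNA per cell.

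Macrophages with a UMI of *Cxcl9*, a chemokine gene induced by interferon gamma, were then compared with the other macrophages of the same tumor, in 47 tumors of all strains, with cells thinned to 1000 UMIs. *Il2rg* was higher in *Cxcl9*+ macrophages, at 196 against 110.2 CPM of summed counts. Per tumor it ran from 93.2 through 188 to 283 CPM with and from 54.8 through 112 to 218 CPM without *Cxcl9*, and it was higher in 47 of 47 tumors (0.75 ± 0.04, adjusted p = 5.15e-34 by edgeR). *Il15ra* was higher too, at 22.01 against 12.48 CPM and in 41 of 47 tumors (0.71 ± 0.11, adjusted p = 1.35e-08 by edgeR). *Il15* did not pass, at 42.1 against 41.8 CPM, and was higher in 24 and lower in 23 tumors (0.09 ± 0.07, adjusted p = 0.386 by edgeR). *Il2ra*, too low to be tested, had 6.38 against 2.95 CPM and was higher in 31 and lower in 13 tumors. *Il2rb*, also too low, had 0.912 against 1.32 CPM, from 14 and 64 UMIs, and was higher in 9 and lower in 31 tumors. *Il2*, too low as well, had 0.456 against 0.496 CPM, from 7 and 24 UMIs, and was higher in 7 and lower in 13. For both genes the median tumor had 0 CPM in its *Cxcl9*+ macrophages. These were 15355 cells against 48406, so for *Il2rb* and *Il2* the counts of tumors give no direction. So 2 of 3 tested members were higher, where 15.8% of the 6772 genes tested were. Without thinning *Il15* was lower in *Cxcl9*+ macrophages (-0.16 ± 0.05, adjusted p = 0.00221 by edgeR). Within cluster 26 and within cluster 2 the *Il2rg* difference was 0.71 ± 0.08 and 0.62 ± 0.07, and *Il15* and *Il15ra* were too low to be tested there.

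**Figure D5:**
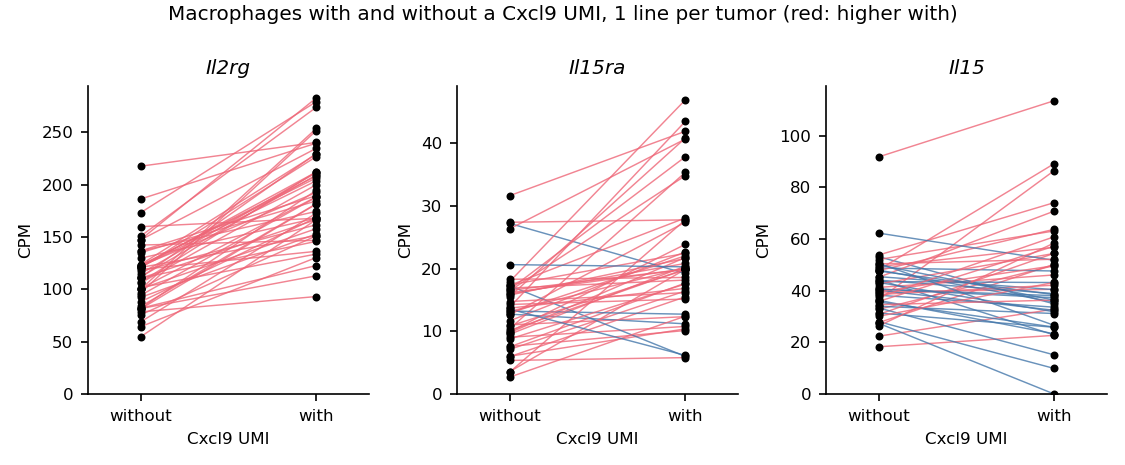
*Il2rg*, *Il15ra* and *Il15* (CPM, axes from 0) in macrophages without and with a *Cxcl9* UMI after thinning to 1000 UMIs, 1 line per tumor, red where higher with *Cxcl9*. *Il2rg* rises in 47 of 47 tumors and *Il15ra* in 41, and *Il15* is higher in 24 and lower in 23.

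The share of macrophages with a *Cxcl9* UMI itself ran from 16.2% through 35.6% to 49.6% in responder aPD1 and from 8.55% through 11.7% to 21.5% in non-responder aPD1 tumors, and from 8.57% through 28.6% to 37.7% in responder isotype and from 8.13% through 12.7% to 29.5% in non-responder isotype tumors. The medians of this share differed between classes in isotype tumors too, where no member passed. Its part in the class differences of *Il2rg* and *Il15ra* in aPD1 tumors was not tested.

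Of 29 other genes of the pathway, of which 28 were among the symbols measured, 8 common γ chain cytokines and receptors, 7 signaling genes and 14 response genes, 18 could be tested in the *Cxcl9* comparison. Of these, 5 passed as higher in *Cxcl9*+ macrophages, as did 15.8% of all genes, and 5 as lower, as did 17.4%. Higher were *Socs1* (1.06 ± 0.08) and *Socs3* (0.27 ± 0.04), which encode feedback inhibitors of JAK signaling, the cyclin gene *Ccnd2* (0.55 ± 0.06), the IL-21 receptor gene *Il21r* (0.45 ± 0.06) and the kinase gene *Jak3* (0.41 ± 0.11). Lower were the cytokine gene *Osm* (-0.47 ± 0.06), the IL-7 receptor gene *Il7r* (-0.24 ± 0.08), the survival gene *Mcl1* (-0.23 ± 0.03), the kinase gene *Jak1* (-0.20 ± 0.04) and the adaptor gene *Gab2* (-0.14 ± 0.03). With all macrophage clusters summed, 0 of 21 tested pathway genes passed in any class comparison, with medians in aPD1 tumors of 0.02 for the 3 γ chain genes, -0.09 for the 11 response genes and 0.17 for the 7 signaling genes on the log2 scale. In single macrophage clusters of aPD1 tumors some passed, and these genes are named after their values were seen. In cluster 2, 3 of 21 tested were higher in responder strains, *Socs1* (0.86), *Prdm1* (0.72) and *Stat5b* (0.41), where 4.3% of all genes were, and 1 was lower, *Socs2* (-0.69), where 3.25% of all genes were lower. In cluster 26, 3 of 20 tested were higher, *Socs1* (1.17), *Pim1* (0.84) and *Socs3* (0.69), where 4.86% of all genes were. In cluster 5, 1 of 21 tested, *Myc* (-0.68), was lower, where 1.38% of all genes were. Over both treatments *Socs1* was also higher in cluster 26 (0.70), where 4.65% of all genes were. In T/NK cells 1 of 23 passed in the class comparison, where 2.08% of all genes did, the IL-4 receptor gene *Il4ra*, which was lower in responder strains (-0.52 ± 0.13, adjusted p = 0.0238 by edgeR).

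B6 and CC007 tumors, which were in no class, entered no comparison between classes. Their macrophage *Il2rg* means were 168 CPM in both B6 isotype and B6 aPD1 tumors (n = 3 each) and 157 CPM and 160.2 CPM in CC007 isotype and aPD1 tumors (n = 2 each). *Il15* had means of 33.4 CPM in B6 isotype and 27.7 CPM in B6 aPD1 tumors, and *Il15ra* of 14.4 CPM and 16.4 CPM. The CC007 aPD1 tumor of pool 6 had 30 macrophages with no *Il15* UMI and 2 *Il15ra* UMIs.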

How the data were processed

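Per the labels and the methods of the study, the authors made 10x 5′ scRNA-seq libraries of 12 pools of 4 hashed tumors, counted UMIs with Cell Ranger on GRCm38 with GENCODE vM23 annotation, and assigned cells to specimens and clusters with Seurat 5.0.1. The deposited values are counts of UMIs per gene and cell, not normalized, with the authors' cluster and specimen of each cell. The authors left out cells high in mitochondrial or ribosomal reads. How doublets were treated is not given in the sources used here, and no doublet caller was run.

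Counts were summed per tumor over T/NK clusters, macrophage clusters, single clusters or all cells, for tumors with at least 10 cells. A total of 38 tumors of classed strains entered class comparisons, at 808362 to 17713491 UMIs per tumor. Sums were tested with edgeR 4.0.16 (R 4.3.3; TMM, filterByExpr, quasi-likelihood test, 4 groups of class and treatment), with Benjamini-Hochberg adjustment over all genes tested and a threshold of 0.05. A class difference over both treatments is the mean of responder minus the mean of non-responder groups. DESeq2 1.42.0 was the alternative. CPM are a gene's UMIs over all UMIs of the same cells, scaled to 1000000, and are not divided by length, so levels are not compared between genes. Neighboring clusters in a gene's order were called apart where the mean difference of log2(CPM + 10) over at least 5 tumors exceeded 1 SD. Shares were tested with exact permutation tests in Python 3.11.15 with scipy 1.17.1. Coordinates came from the GENCODE vM21 annotation of GRCm38. Named genes were the 6 members, the 5 genes most like each over clusters with at least 50 CPM in a cluster, and pathway genes that passed, at most 10 a comparison. The fits were tested on simulated data.

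The labels place same-pool tumors in 1 shared library, so the pool pairs isotype and aPD1 tumors of a strain. Deviations of 19 such pairs correlated at a median r of 0.471 (-0.0886 to 0.763), with 18 over 0.1. Tumors of a group came from separate hosts by the labels, except that 2 CC080 tumors carry 1 animal identifier. The members and lists were chosen with earlier results of these data known.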

Additional observations from a re-analysis of the deposited data

Results flagged for a closer look

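In 13 of 52 groups of 9 or 10 tumors, 1 tumor lay farther from the rest than Dixon's 95% critical value allows. Chance gives about 1 in 20 only for independent values with a normal spread, which low counts often lack. Some tumors were also flagged more than once, so the 13 are not read as an excess. Most of these values rest on few UMIs.

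In T/NK clusters, *Il2* was 755 CPM in the CC079 aPD1 tumor of pool 1, which had 29 such cells, against 0 to 34.7 CPM in the other non-responder aPD1 tumors, and 60 of its 61 UMIs were in 1 cell. *Il15* was 9.80 CPM (3 UMIs) in the CC036 isotype tumor of pool 9, against 0 to 4.62 CPM. *Il15ra* was 35.0 CPM (19 UMIs) in the CC075 aPD1 tumor of pool 10, against 7.25 to 18.997 CPM. The share of T/NK cells with all 3 IL-2 receptor chains was 11.5% in the CC079 aPD1 tumor of pool 1, from 3 of 26 cells, against 1.08% to 4.68%.

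In macrophage clusters, *Il15* was 70.7 CPM (325 UMIs) in the CC075 aPD1 tumor of pool 11, against 26.2 to 49.7 CPM in the other responder aPD1 tumors. *Il2rg* was 174 CPM (1679 UMIs) in the CC079 aPD1 tumor of pool 1, against 95.1 to 127 CPM in the other non-responder aPD1 tumors. *Il2* was 5.55 CPM in the CC080 isotype tumor of pool 4, with 18 of 19 UMIs in 1 cell, against 0 to 0.459 CPM, and 1.09 CPM (5 UMIs) in the CC075 aPD1 tumor of pool 11, against 0 to 0.534 CPM. *Il2ra* was 10.2 CPM (72 UMIs) in the CC036 aPD1 tumor of pool 10, against 1.10 to 5.27 CPM, and 19.9 CPM (88 UMIs) in the CC075 isotype tumor of pool 9, against 0.380 to 9.40 CPM. *Il2rb* was 1.91 CPM (13 UMIs) in the CC036 aPD1 tumor of pool 8, against 0.104 to 0.889 CPM, 6.00 CPM (6 UMIs) in the CC036 isotype tumor of pool 8, against 0.181 to 2.53 CPM, and 6.94 CPM (26 UMIs) in the CC075 aPD1 tumor of pool 9, against 0.286 to 1.56 CPM.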

How the results depend on the processing

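Of 1183 values recomputed under alternatives, 1079 kept their direction and side of the threshold, or stayed within 1.5 times where the value was a count of members. Of the rest 48 lost and 26 gained a call or moved a count by over 1.5 times, and 30 changed sign. Among the 1183 were 688 log2 differences and levels of members, of which 613 stayed the same. Requiring 20 cells a tumor left the same 38 tumors in the all-cell and macrophage fits, so those values could not change. Early pools are pools 1 to 6 and late pools are pools 7 to 12, which also differ in strains. The batch term is this same split by pool number. The early and late pools alone, the sums per strain, the single macrophage clusters, the single T/NK and dendritic clusters in aPD1 tumors alone, the *Cxcl9* comparison within a cluster and the removal of the CC079 aPD1 tumor of pool 1 were chosen after seeing the data. Where a call changed, the cause was not tested.

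The number of members called in macrophages over both treatments was 2, where 6.52% of all genes were called. In brackets below is the share of all genes called. The number was 1 by library size alone (7.26%), with no low-count filter (2.74%), with the pool as a replicate block (8.74%) and without tumors under 500 cells (6.08%). It was 1 in late pools (2.71%), 1 without macrophages with a T/NK UMI (6.34%), 0 in early pools (2.59%) and 0 summed per strain (0.296%). With a strain left out it was 0 to 3 (5.16% to 7.81%). In aPD1 tumors it was 3 (6.41%), and 0 in early pools (1.15%), 1 in late pools (0.572%) and 0 summed per strain (0.123%). With a strain left out it was there 2 to 3 (2.7% to 7.74%). Over all cells it was 0 (3.2%), and 3 by DESeq2 (4.55%), 1 with the pool block (4.41%) and 2 with a batch term (4.5%). With a strain left out it was 0 to 3 over all cells (2.13% to 4.34%). In T/NK cells of aPD1 tumors it was 0 (0.319%), and 0 to 1 with a strain left out. In the *Cxcl9* comparison it was 2, and 4 not thinned, 1 within cluster 26 and 1 within cluster 2, where 33.2%, 53.6%, 20.8% and 24.1% of all genes passed in turn. The difference in cells with 3 chains in aPD1 tumors was -6.27 percentage points at 2000 UMIs, -4.25 not thinned and -2.88 to -1.19 with a strain left out. It passed at 2000 UMIs and without CC036. In isotype tumors this difference was -1.02 to 0.441 with a strain left out.

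Among changes of sign on the log2 scale, *Il15* against *Cxcl9* was -0.16 not thinned. *Il2rb* in T/NK cells was 0.026 with no filter, 0.033 with the pool block, 0.0041 without the shared identifier, 0.063 in early pools, 0.023 per strain and -0.15 to 0.076 with a strain left out. *Il2ra* in cluster 7 of aPD1 tumors was 0.095 in late pools. *Il2rg* in T/NK cells was 0.071 in late pools and -0.30 to 0.17 with a strain left out. *Il2rb* in cluster 24 was -0.15 with no filter, -0.0047 with a batch term, -0.010 at 20 cells, -0.0045 without the shared identifier, -0.032 without tumors under 500 cells, -0.13 in late pools and -0.084 to 0.12 with a strain left out. In macrophages of isotype tumors *Il15ra* was -0.23 in early pools and -0.12 to 0.37 with a strain left out, and *Il15* was 0.20 in late pools and -0.11 to 0.054. For aPD1 in non-responder strains *Il15ra* was -0.45 to 0.018 and *Il2rg* -0.26 to 0.035 with a strain left out.

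Counts of all genes called also moved. Over both treatments in macrophages they were 774, and 304 in early pools, 327 in late pools and 41 per strain. In aPD1 tumors they were 761, and 1388 with the pool block, 135 and 69 in early and late pools and 17 per strain. In T/NK cells they were 150, and 286 with the block, 34 in late pools and 13 per strain, and in aPD1 tumors 23, and 93 with the block, 5 in late pools and 3 per strain. Over all cells they were 432, and 145 and 147 in early and late pools and 24 per strain. In the *Cxcl9* comparison they were 2250, and 5467 not thinned. *Il2* and *Il2rb* in macrophages and *Il15* in T/NK cells had too few UMIs to be tested.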
